A study of Mus musculus with 15 samples.

Results

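MicroRNAs of sorted Wnt1-Cre cells were compared between miR-302 knockout (KO) and wild-type (WT) mouse embryos at embryonic day 8.5 (E8.5). The comparison used 7 of the 15 libraries of the series, 3 WT and 4 KO, and kept every microRNA hairpin with at least 10 normalized counts in at least 2 of these 7. This left 228 of 1226 hairpins, which held 97.8% to 99.1% of the reads of each library. The other 8 libraries, at E7.5 and E9.5, entered the comparison only through the shared estimate of spread and through a contrast of the KO effects between stages.

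All 7 libraries came from C57BL/6 embryos. Per the labels, their cells carried the Wnt1-Cre mark and were neural crest before and after migration, and the WT controls carried that mark as well. Cells were sorted by flow cytometry into Trizol-LS, RNA was extracted with the miRNeasy Mini kit, and library preparation used the NEXTflex Small RNA-Seq kit v3. The genotype label reads KO or WT and names no allele. Wnt1-Cre labels cells by descent from the dorsal neural tube, so the sorted fraction holds neural tube cells and neural crest together and is not a single cell type. No label places the libraries of a group in separate litters. The p-values therefore measure only the spread among libraries, part of which may be technical. In the main fit that spread is pooled over all 15 libraries of the series.

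The cluster of miR-302 and miR-367 is transcribed as 1 precursor RNA and is active in pluripotent cells and in the early embryo. A microRNA guides the silencing complex to target messenger RNAs mainly through its seed, bases 2 to 8 of the mature strand, so microRNAs with the same seed share many predicted targets. The neural crest arises at the border of the neural plate and gives rise to neurons, glia, pigment cells and much of the skeleton of the face.

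The sequences below show which microRNAs carry the miR-302 seed, which carry the same letters shifted by 1 base, and how mir-367 differs from its neighbours. Mature strands are from RefSeq (GRCm38.p6), written 5′ to 3′, with the seed in capitals. Within the cluster, on the plus strand of chromosome 3, the strands are:
miR-302b-3p: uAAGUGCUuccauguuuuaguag
miR-302c-3p: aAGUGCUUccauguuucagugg
miR-302d-3p: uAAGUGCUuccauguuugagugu
miR-367-3p: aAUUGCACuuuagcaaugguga
Outside the cluster, the miR-302 seed is carried by 3 hairpins of the cluster that runs from miR-290 to miR-295 and is active in embryonic stem cells, on chromosome 7:
miR-291a-3p: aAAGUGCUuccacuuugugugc
miR-294-3p: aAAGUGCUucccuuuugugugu
miR-295-3p: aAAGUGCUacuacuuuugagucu
Members of the miR-17-92 cluster and its relatives carry the seed shifted by 1 base, as in these strands from chromosomes 14 and 5:
miR-17-5p: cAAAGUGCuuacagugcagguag
miR-20a-5p: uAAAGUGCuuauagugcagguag
miR-93-5p: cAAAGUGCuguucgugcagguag
Of the 1679 mature strands in the RefSeq table, 5 had the seed of miR-302b-3p and miR-302d-3p and 7 had the shifted one. The strand listed for miR-302c-3p starts 1 base later than those of miR-302b-3p and miR-302d-3p, so its bases 2 to 8 read differently. It was counted with the targeted hairpins, as was mir-302a, for which the RefSeq table had no miR-302a-3p strand.

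Depth differed widely. The WT libraries held 24465, 124775 and 179772 reads and the KO libraries 25611, 46082, 1706 and 9757, a 105-fold range. One read was worth 0.257 normalized counts in WT replicate 3 and 19.3 in KO replicate 3. In KO replicate 3, 81 of the 228 hairpins had 0 reads, against 0 to 8 in the other 6 libraries, and results are therefore given with and without it. A number in the library labels, whose meaning they do not state, was 128 for KO replicates 2 and 3 and 169 for WT replicate 2 and KO replicate 4. No 2 libraries of a group agreed within sampling noise (chi-square of 2.21 to 28.0 per degree of freedom), and each was used as 1 sample.

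The targeted hairpins were lost from the KO cells. mir-302b, the most abundant of them, stood at 3640, 2145 and 3935 normalized counts in WT and at 11.0, 2.14, 19.3 and 0 in KO. mir-302d stood at 1364, 1044 and 1478 in WT, mir-302a at 838, 604 and 967, and mir-302c at 169, 82.3 and 141.95. These 3 hairpins had 0 reads in every KO library, and no KO library came near a WT library for any of the 4. A count of 0 in all 4 KO libraries allows up to 3 reads, or 1.27 normalized counts, which put mir-302d at least 1017-fold, mir-302a at least 637-fold and mir-302c at least 94.2-fold lower than in WT. These floors cover counting error only. In limma's fit across all kept hairpins the log2 fold changes were -9.62 ± 0.68 (SE) for mir-302a, -9.22 ± 0.86 for mir-302b, -6.98 ± 0.78 for mir-302c and -10.32 ± 0.62 for mir-302d, with adjusted p of 1.72e-07, 3.74e-06, 2.42e-05 and 4.06e-08. They depend on the pseudocount of 1, and leaving out KO replicate 3 moved only that of mir-302b, to -9.87.

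mir-367, the last hairpin of the precursor, stood at 14.7, 8.81 and 16.98 in WT and at 50.5, 6.43, 0 and 18.7 in KO. Its groups overlapped (log2 fold change -0.59 ± 1.05, limma adjusted p = 0.799). Its seed is that of miR-92a, miR-92b, miR-25 and miR-363, whose hairpins were far more abundant: mir-92a-1 had 12579 ± 349 normalized counts in WT (SD, n = 3).

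**Figure D1:**
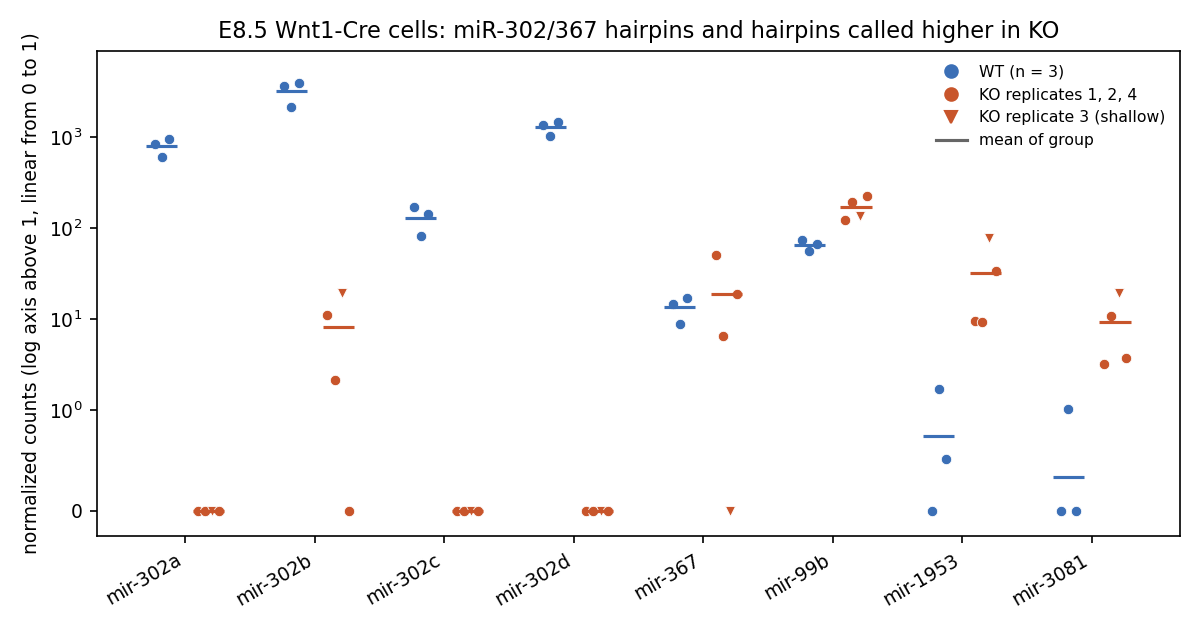
Normalized counts per library of the 5 hairpins of the targeted cluster and the 3 hairpins past the threshold in the KO direction, on a log axis that is linear from 0 to 1; points are libraries, horizontal bars are group means, and the triangle is the shallow KO replicate 3. The KO points of mir-302a, mir-302c and mir-302d lie at 0, those of mir-367 lie on both sides of WT, and those of mir-99b, mir-1953 and mir-3081 lie above every WT point.

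The summed level of the targeted hairpins and the other hairpins with the miR-302 seed or the shifted seed was lower in KO. Most of that sum in WT was the targeted hairpins, so its drop is not a separate result. Counts are of whole hairpins, so reads of strands without the seed are included. The 4 targeted hairpins took 13.4%, 9.17% and 14.1% of all hairpin reads in the WT libraries, and 0.0273%, 0.00651%, 0.0586% and 0% in the KO libraries. For KO replicate 4, with 0 reads, 3 reads would be 0.0307% of its total, and for KO replicate 3 the single read had an exact (Clopper-Pearson) 95% interval of 0.00148% to 0.326%. The 3 hairpins outside the cluster with the same seed summed to 80.9, 73.2 and 99.6 normalized counts in WT and 88.3, 30.7, 38.7 and 37.3 in KO. Of these, mir-295 was at 42.4 ± 11.3 in WT (SD, n = 3) and 24.1 ± 13.1 in KO (n = 4), mir-294 at 22.4 ± 0.647 and 17.4 ± 8.81, and mir-291a at 19.7 ± 1.87 and 7.27 ± 8.21. On this scale the groups overlapped for all 3. mir-291a was lower without overlap under TMM and median-of-ratios scaling and as a percent of reads outside miR-302. As a percent of all reads, the sum of the 3 was 0.219% in KO replicate 1, beside 0.215% in the highest WT library.

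The hairpins with the shifted seed summed to 849, 1123 and 1196 in WT and 826, 2238, 1759 and 1530 in KO. KO replicates 2, 3 and 4 lay above WT and KO replicate 1 below it. mir-20a, a member of the miR-17-92 cluster known for promoting proliferation, stood at 143.3, 186 and 223.3 in WT and at 121, 644, 580 and 381 in KO. It had the same split, with a log2 fold change of 0.996 ± 0.584 (limma adjusted p = 0.515). mir-93, from the miR-106b-25 cluster, was at 436 ± 97.1 in WT and 517 ± 157 in KO. Summed over all 14 targeted, same-seed and shifted-seed hairpins, WT held 6610 ± 1403 (SD, n = 3) and KO 1645 ± 561 (n = 4). The KO mean was 24.9% of the WT mean, and the groups did not overlap. The targeted hairpins made up 76.4% to 86.6% of that sum in WT. In KO the shifted seed made up 89.3% to 98.6% of it.

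**Figure D2:**
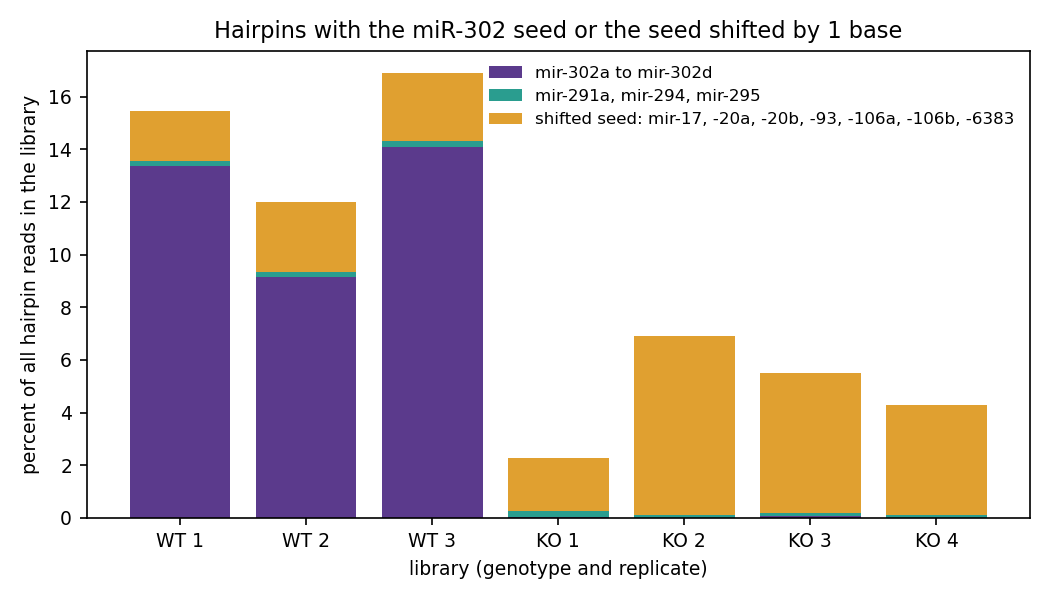
Percent of all hairpin reads per library, stacked for mir-302a to mir-302d, for the 3 other hairpins with the miR-302 seed, and for hairpins with the seed shifted by 1 base; each bar is 1 library. The WT bars reach 11.998% to 16.9% and are mostly miR-302, and the KO bars reach 2.29% to 6.90% and are almost wholly the shifted seed.

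Beyond the targeted hairpins, few microRNAs passed the test. limma called 7 of 228 hairpins (3.07%) at an adjusted p under 0.05, with 3 higher in KO (1.32%) and 4 lower (1.75%), the 4 being the targeted hairpins. At an unadjusted p under 0.05 there were 23. edgeR's quasi-likelihood test on the recovered reads called 5, of which 1 was higher, and DESeq2 called 13, of which 9 were higher. limma without KO replicate 3 called 6, of which 2 were higher. No hairpin was called higher by limma when only the 7 E8.5 libraries were fitted. The median log2 fold change of all 228 was -0.30, with 95 above 0 (41.7%) and the other 58.3% below. Without KO replicate 3 it was 0.10, with 44.7% below 0, and in edgeR 0.20, with 60.5% above, so the sign of small changes depends on that library and on the scale. With library-sum scaling the median was -0.01 and with TMM -0.58.

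The first of the 3 hairpins that rose was mir-99b, which lies in a cluster with let-7e and mir-125a. It stood at 73.5, 55.6 and 66.9 in WT and at 123, 195, 135 and 228 in KO. Every KO library was above every WT library, and the log2 fold change was 1.33 ± 0.33 (limma adjusted p = 0.0437). The adjusted p was 0.0619 without KO replicate 3 and 0.103 in edgeR, and DESeq2 gave 0.0105. No single library could be left out without losing the call, except KO replicate 1.

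mir-1953 stood at 0, 1.69 and 0.515 in WT and at 9.46, 9.29, 77.3 and 33.6 in KO, with a log2 fold change of 3.86 ± 0.84 (limma adjusted p = 0.0176, edgeR 0.0291). mir-3081 stood at 0, 1.02 and 0 in WT and at 3.15, 10.7, 19.3 and 3.73 in KO, with 2.71 ± 0.59 (limma adjusted p = 0.0176, edgeR 0.103). Both were near 0 in WT and higher in 4 of 4 KO libraries. They are among 16 of the 228 hairpins that reached the minimum of 10 normalized counts in KO libraries only, so they were tested because they are high there, and their calls and lack of overlap are not support by themselves. In KO replicate 3 they rested on 4 reads and 1 read, and without it both kept an adjusted p of 0.0224. The calls of both were lost without WT replicate 1 or WT replicate 3 (adjusted p between 0.113 and 0.125), and that of mir-1953 without KO replicate 4 (0.0636).

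**Figure D3:**
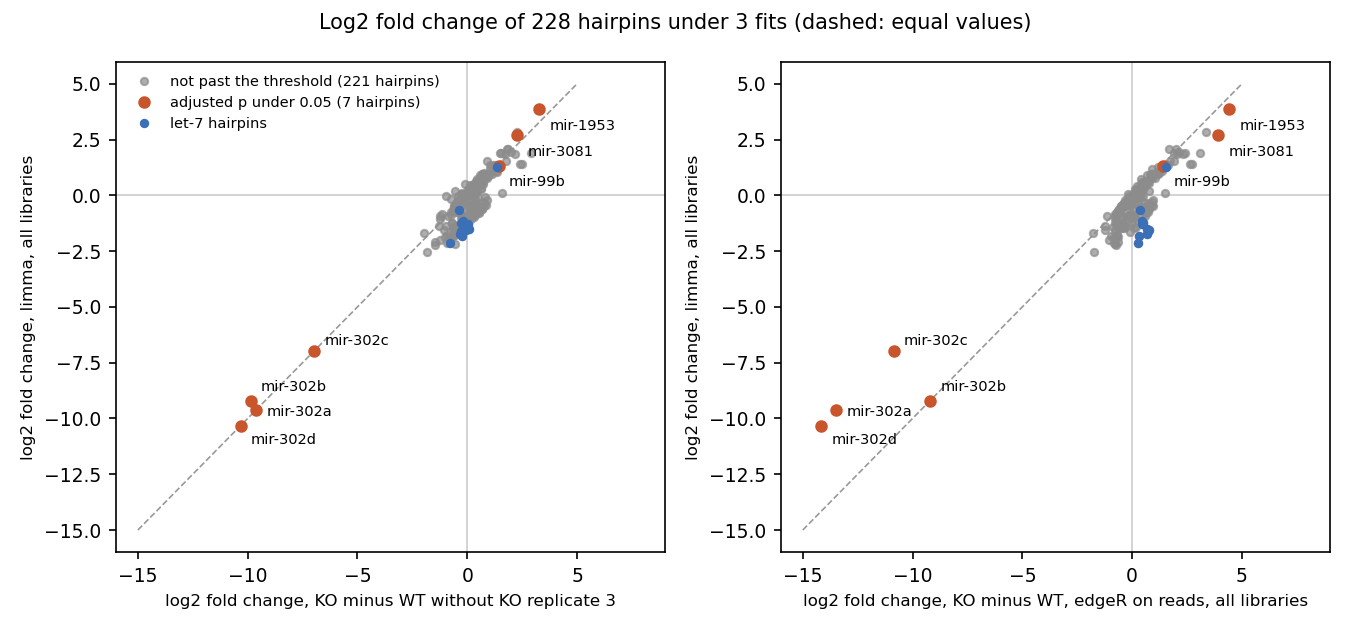
Log2 fold change (KO minus WT) of the 228 hairpins in limma with all libraries, against limma without KO replicate 3 (left) and edgeR on the reads (right); points are hairpins, orange marks those past the threshold and blue the let-7 hairpins. The called hairpins keep their direction in both panels, edgeR's values for hairpins at 0 in KO depend on its prior count, and the let-7 hairpins lie mostly below 0 in limma and above 0 in edgeR.

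Among the E8.5 libraries, label code 169 was the only one shared by both genotypes, in WT replicate 2 and KO replicate 4. Within it mir-302b went from 2145 in WT to 0 in KO, mir-99b from 55.6 to 228 and mir-1953 from 1.69 to 33.6. Both libraries are part of the whole comparison, and the hairpins named here were called in it, so the shared directions are not separate support. There is no test at 1 library each. A fit with the label code as a block takes its E8.5 effect from this pair alone.

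Apart from calls, 13 hairpins were higher in all 4 KO libraries than in any WT library (5.7%) and 15 were lower in all (6.58%). Without KO replicate 3 the counts were 23 (10.1%) and 17 (7.46%). As a percent of each library's reads they were 29 (12.7%) and 5 (2.19%), since the miR-302 reads missing from KO raise the share of every other hairpin. As a percent of the reads outside the 4 miR-302 hairpins they were 18 (7.89%) and 12 (5.26%).

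The microRNAs of the miR-181 family were higher in the KO cells as a group, although none of them passed limma's threshold. This family is best known from lymphocyte development and is also made in the nervous system. Its abundant strands share the seed shown in capitals:
miR-181a-5p: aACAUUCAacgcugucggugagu
miR-181b-5p: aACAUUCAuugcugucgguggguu
The strand of miR-181a-5p is encoded on chromosomes 1 and 2, so reads of mir-181a-1 and mir-181a-2 cannot be assigned to 1 copy, and the same holds for mir-181b-1 and mir-181b-2. The copies are not independent measurements. mir-181a-1 stood at 20.2, 32.2 and 20.3 in WT and at 44.2, 174, 77.3 and 123 in KO. The lowest KO library lay above the highest WT library, and the log2 fold change was 1.92 ± 0.66 (limma adjusted p = 0.266, edgeR 0.103, DESeq2 0.0265). mir-181a-2 stood at 20.2, 23.4 and 16.7 in WT and at 34.7, 166, 38.7 and 138 in KO, with a log2 fold change of 1.86 ± 0.72 (limma adjusted p = 0.340). mir-181b-1 was at 14.5 ± 6.00 in WT (SD, n = 3) and 38.1 ± 13.2 in KO (n = 4). Of the 6 hairpins of the family, 6 had a log2 fold change above 0, beside 41.7% of all kept hairpins, and 4 had no overlap between groups on the deposited scale, beside 5.7% higher without overlap. Of the 4, mir-181b-1 overlapped under TMM and median-of-ratios scaling. mir-181b-2, mir-181c and mir-181d reached the minimum of 10 in KO libraries only, so the counts and the median over the family are a description. The median of the 6 was 1.69, beside -0.30 for all kept hairpins, and 1.87 without KO replicate 3, beside 0.10. The family summed to 77.2, 87.4 and 54.3 normalized counts in WT and to 137.2, 480, 232 and 351 in KO. The sum was higher in every KO library also after TMM, library-sum and median-of-ratios scaling. As a percent of reads outside miR-302 it was 0.198%, 0.228% and 0.137% in WT and 0.340%, 1.46%, 0.704% and 0.963% in KO.

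The list with miR-99, miR-100 and also miR-125, whose hairpins lie beside let-7 hairpins and which include the called mir-99b, was the other list higher in all KO libraries. These strands differ in few bases and share a seed:
miR-99b-5p: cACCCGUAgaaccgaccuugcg
miR-99a-5p: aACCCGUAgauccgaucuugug
miR-100-5p: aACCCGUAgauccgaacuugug
The list summed to 248, 222.9 and 190 in WT and to 500.0, 395, 271 and 660 in KO. Every KO sum was above every WT sum, but the groups overlapped after TMM and median-of-ratios scaling. Of its 6 hairpins 1 was called, beside 1.32% of all kept hairpins called higher, 5 had a log2 fold change above 0, beside 41.7%, and the median was 0.57, or 1.08 without KO replicate 3. mir-125a had 51.6 ± 10.9 in WT and 78.8 ± 14.97 in KO, and mir-125b-2 had 36.2 ± 9.04 and 59.5 ± 36.2. The 2 were not called (limma adjusted p = 0.601 and 0.622).

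The let-7 family, held back in early cells by the RNA-binding protein Lin28, split the KO libraries in 2. It summed to 516, 552 and 595 in WT, to 1647 and 1261 in KO replicates 1 and 4, and to 55.7 and 38.7 in KO replicates 2 and 3. The first pair lay above every WT library and the second below. KO replicates 2 and 3 share the label code 128, and whether that code marks a litter, a day or a preparation was not tested. let-7a-1 stood at 60.6, 90.5 and 72.6 in WT and at 244.5, 9.29, 0 and 198 in KO. Of 11 let-7 hairpins, 10 had a log2 fold change below 0 in limma with a median of -1.49, and 11 of 11 were above 0 in edgeR, beside 60.5% of all kept hairpins, with a median of 0.49. No member was called by either test. The fitted direction depends on the tool and on the libraries: in limma the median was 1.30 without the 2 KO libraries of label code 128. With the label code as a block, which rests on WT replicate 2 and KO replicate 4 alone, it was 1.17. let-7e, which lies beside mir-99b, stood at 11.0, 8.47 and 10.03 in WT and at 44.2, 11.4, 19.3 and 37.3 in KO. KO replicates 2 and 3 were again the lower pair, but every KO library was above WT on the deposited scale. The value of KO replicate 3 is the worth of a single read there, and the groups overlapped under TMM scaling.

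Hairpins typical of neural cells showed 2 of 11 members higher without overlap, beside 5.7% of all kept hairpins, and the 2 are copies with 1 mature strand. miR-124 is the most abundant microRNA of differentiated neurons. mir-124-3 stood at 57.0, 37.3 and 32.4 in WT and at 77.3, 62.9, 58.0 and 216 in KO. mir-124-2 stood at 29.4, 17.6 and 17.8 in WT and at 42.6, 48.6, 38.7 and 183 in KO. In KO replicate 3 they rested on 3 and 2 reads, where a single read is worth 19.3 normalized counts. Without that library both were still higher without overlap, beside 10.1% of all kept hairpins. KO replicate 4 was highest for both, the groups overlapped under TMM scaling (mir-124-3 also under median-of-ratios scaling), and the copies of miR-124 share their mature strand. Their log2 fold changes were 1.09 ± 0.61 and 1.52 ± 0.64 (limma adjusted p = 0.515 and 0.376). For mir-124-2, edgeR gave 0.103 and DESeq2 0.0192. For mir-124-1, the other copy, the groups overlapped (44.9 ± 20.1 in WT, 99.1 ± 73.9 in KO). mir-128-1 had 52.2 ± 13.7 in WT and 55.9 ± 39.4 in KO. The neural list summed to 292 to 390 in WT and 314 to 970 in KO, and its median was -0.13, or 0.66 without KO replicate 3.

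The Hox-cluster microRNAs mir-10a and mir-10b, which lie within the Hox gene clusters that pattern the body axis, were near 0 in WT. mir-10b stood at 1.84, 2.37 and 1.80 in WT and at 11.0, 13.6, 0 and 22.4 in KO. mir-10a stood at 0, 4.07 and 1.03 in WT and at 25.2, 2.86, 0 and 41.0 in KO. Both also entered the test through KO libraries only. Without KO replicate 3 the groups still overlapped for mir-10a, while the mir-10b values of KO lay above those of WT. Neither passed in limma (adjusted p = 0.590 and 0.515) or edgeR (0.103 for both), and DESeq2 gave 0.0307 and 0.0135.

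**Figure D4:**
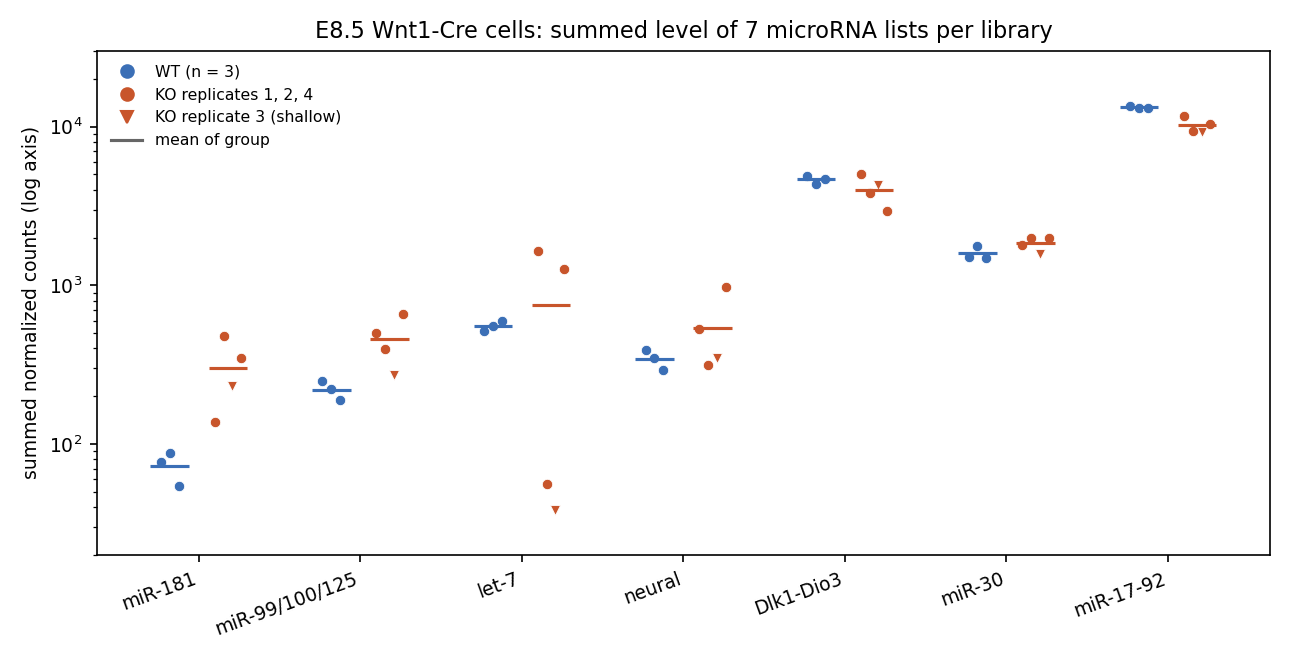
Summed normalized counts per library of 7 microRNA lists on a log axis; points are libraries, bars are group means and the triangle is KO replicate 3. KO points lie above all WT points for miR-181 and for miR-99 with its relatives on the deposited scale (the latter overlap after TMM and median-of-ratios scaling), below them for miR-17-92 (overlapping under library-sum scaling), and on both sides of WT for let-7.

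Among hairpins lower in KO without overlap, none outside the targeted ones was called. mir-92a-1, the most abundant hairpin of these cells and part of the miR-17-92 cluster, was at 12579 ± 349 in WT (SD, n = 3) and 9072 ± 1579 in KO (n = 4), with a log2 fold change of -0.49 ± 0.53 (limma adjusted p = 0.652). mir-92a-2, the copy on chromosome X with the same mature strand, was at 3994 ± 391 and 2998 ± 273. As a percent of all reads both overlapped between the groups. The miR-17-92 cluster summed to 13175 ± 247 in WT and 10162 ± 1146 in KO, yet 5 of its 6 hairpins had a log2 fold change above 0 with a median of 0.74: the sum follows mir-92a-1, and the other members, such as mir-18a at 185 ± 25.8 and 269 ± 99.2, were higher on average. Under library-sum scaling the summed levels of the cluster overlapped. As a percent of reads outside miR-302 the cluster was 32.9% to 34.5% in WT and 27.9% to 29.0% in KO, without overlap. On that measure mir-92a-1 was lower in every KO library and mir-92a-2 overlapped. The sums of the related miR-106a and miR-106b clusters were likewise lower in every KO library, 5252 ± 501 against 4436 ± 161, with 6 of 9 hairpins above 0. That sum overlapped under TMM and library-sum scaling. mir-25 was at 252 ± 32.1 in WT and 196 ± 19.6 in KO.

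mir-26a-1 stood at 660, 528 and 539 in WT and at 478, 308, 271 and 440 in KO, and mir-26a-2 at 522, 386 and 425 in WT and at 355, 222, 174 and 369 in KO. miR-26a is a broadly made microRNA that rises as cells differentiate. All KO libraries were lower on the deposited scale and after TMM and median-of-ratios scaling. As a percent of reads outside miR-302 that held for mir-26a-1 and not for mir-26a-2, and as a percent of all reads the groups overlapped for both. They had log2 fold changes of -0.65 ± 0.44 and -0.72 ± 0.35 (limma adjusted p = 0.561 and 0.469). mir-7a-1 had 182.45 ± 48.1 in WT and 117 ± 14.9 in KO, with a log2 fold change of -0.61 ± 0.30 (adjusted p = 0.469). mir-652 stood at 123, 129.1 and 123.5 in WT and at 91.5, 59.3, 0 and 108 in KO. Its KO value of 0 is that of the shallow library, and its log2 fold change moved from -2.18 to -0.57 without it.

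The imprinted Dlk1-Dio3 region on chromosome 12 carries a large group of microRNAs made from the maternal chromosome. Of its 40 kept hairpins 33 had a log2 fold change below 0, against 58.3% of all hairpins, with a median of -0.80 beside -0.30. Without KO replicate 3 it was 29 of 40, with a median of -0.40 beside 0.10. None was called. On the deposited scale 3 of 40 were lower without overlap, a share near the 6.58% of all kept hairpins, and without KO replicate 3, 3 of 40 were higher without overlap, beside 10.1%. One of the 3 lower hairpins was mir-431, at 265, 252 and 192.5 in WT and 169, 55.7, 77.3 and 93.3 in KO. Its log2 fold change was -1.36 ± 0.51 (limma adjusted p = 0.340). The other lower ones, named after their values were seen, were mir-376b at 25.5 ± 0.957 and 5.95 ± 6.82 and mir-376c at 36.2 ± 11.0 and 12.1 ± 7.48. Abundant members overlapped between the groups: mir-409 was at 420 ± 55.9 and 395 ± 132.6, mir-382 at 306 ± 24.4 and 439 ± 155, and mir-541 at 739 ± 156 and 540 ± 193. The summed level of the region was 4654 ± 281 in WT and 4010 ± 872 in KO and overlapped.

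No hairpin defining neural crest was among the lists, so the identity of the cells was not tested. Markers of other cell types that a sorted fraction could also hold were compared between the groups. That comparison does not show whether such cells were present in both. The sums of the blood, muscle, vascular, endoderm and liver, and mesenchymal lists overlapped between groups, and their part in the results was not tested. In these bulk samples, fewer cells of a type and less RNA per cell cannot be told apart. The blood list, with miR-451a, miR-144, miR-142 and miR-223, had 0 kept members and summed to 1.54 to 3.67 in WT and 0 to 11.0 in KO. The muscle list had 1 kept member, mir-1a-1, and summed to 14.2 to 27.6 in WT and 5.002 to 91.5 in KO, with the highest value in KO replicate 1. The vascular list had 2 kept members and summed to 57.1 to 127 in WT and 77.3 to 158 in KO. It held mir-126a at 36.2 ± 18.2 and 66.5 ± 34.3 and mir-143 at 45.9 ± 21.0 and 44.7 ± 48.7. The endoderm and liver list had 4 kept members and summed to 134 to 181.9 and 58.0 to 296.5, the latter end in KO replicate 1. It held mir-375 at 72.0 ± 36.7 and 93.9 ± 63.1. The mesenchymal list had 4 kept members and summed to 82.6 to 155.5 and 67.8 to 339.5, the latter end in KO replicate 4. It held mir-140, a microRNA of cartilage, at 39.8 ± 6.89 and 65.1 ± 20.4.

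The epithelial list, with the miR-200 family that maintains the epithelial state, had 6 kept members and had sums of 227.6 to 291 in the WT libraries and 213 to 429.002 in the KO libraries. mir-200b had 118 ± 27.4 normalized counts in WT and 143.7 ± 71.9 in KO, mir-200c 64.2 ± 17.6 and 72.5 ± 11.1, and mir-205 22.1 ± 8.72 and 38.8 ± 7.97. The groups overlapped for all 3 on this scale. mir-200a, 1 of the 6, was higher in every KO library on this scale, beside 5.7% of all kept hairpins. It overlapped under TMM and median-of-ratios scaling. As a percent of all reads the list was 0.539% to 0.629% in WT and 0.645% to 1.12% in KO, without overlap. As a percent of reads outside miR-302 the list overlapped. The pluripotency-associated cluster from miR-290 to miR-295 had 6 kept members, with a sum of 294 ± 61.1 in WT and 266 ± 116 in KO and 5 of 6 below 0 with a median of -0.49. mir-293, its most abundant member, was at 114.5 ± 22.9 and 103 ± 53.6.

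In the remaining lists no hairpin was called. The cluster of mir-182, mir-183 and mir-96, known from sensory cells, summed to 1830 ± 263 in WT and 1278 ± 444 in KO with 3 of 3 below 0. It overlapped. The miR-30 family summed to 1591 ± 158 and 1838 ± 193 with 5 of 5 above 0, and mir-30a was at 396 ± 95.3 and 566 ± 123.7. The family of miR-15 and miR-16 summed to 573.5 ± 142.1 and 742 ± 211, that of miR-130 and miR-301 to 273 ± 59.0 and 251 ± 30.2, the cluster of mir-322 and mir-503 to 120 ± 12.8 and 124.6 ± 9.86, and the clusters of miR-23, miR-27 and miR-24 to 117 ± 5.95 and 110 ± 76.7, and all 4 overlapped. mir-503 alone was at 6.81 ± 3.99 and 30.3 ± 20.5 (log2 fold change 1.90 ± 0.69, limma adjusted p = 0.337). The miR-34 and miR-449 list kept mir-34a, a target of p53 that reached the minimum of 10 in KO libraries only, at 2.92 ± 2.73 and 13.9 ± 8.30. The Sfmbt2 repeats, a group of related hairpins within an intron of Sfmbt2, had 0 kept members and summed to 27.8 to 40.9 in WT and 19.3 to 24.3 in KO, lower in every KO library on this scale. The groups overlapped under library-sum scaling and as a percent of reads outside miR-302.

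**Figure D5:**
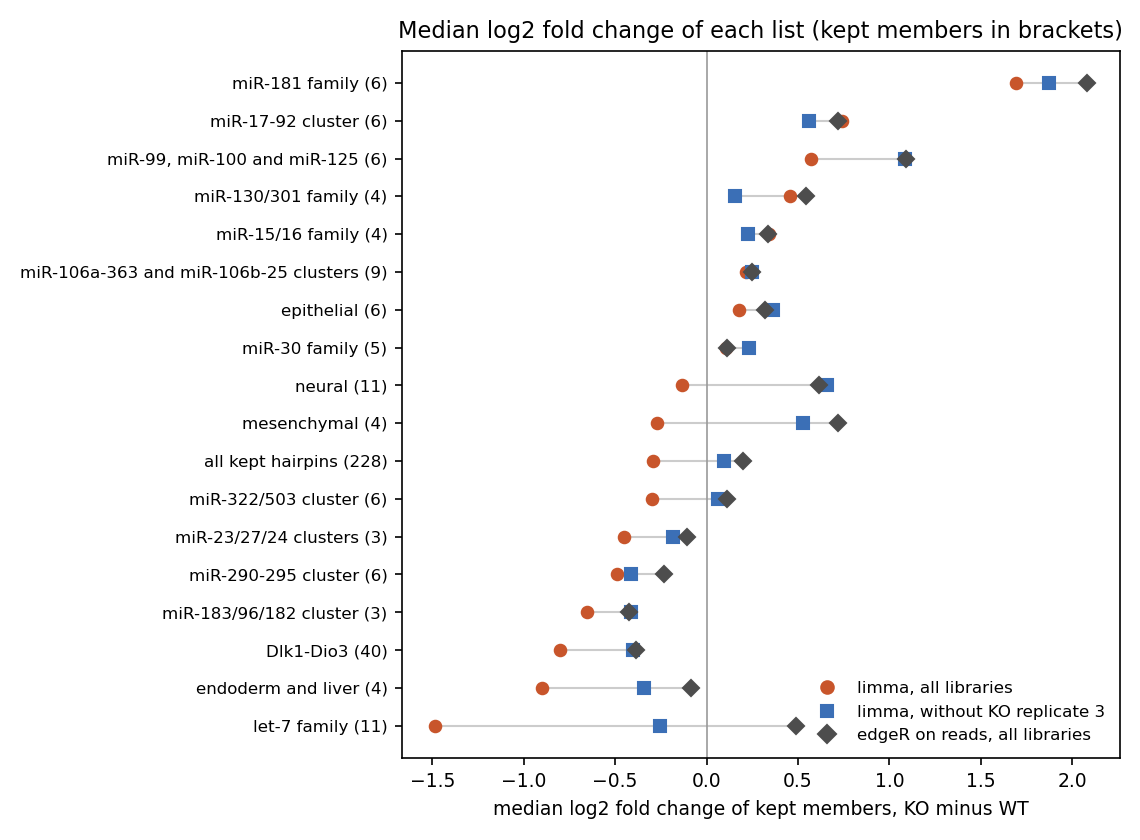
Median log2 fold change (KO minus WT) of the kept members of each list with at least 3 of them, in limma with all libraries, limma without KO replicate 3 and edgeR on the reads; the number in brackets is the number of kept members. The miR-181 median lies above 1.5 in the 3 fits, and the let-7 median runs from -1.49 to 0.49.

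The size of the miR-302 loss was compared with that at the other stages. The KO effect at E8.5 differed from that at E7.5, in whole embryos, for 0 of 228 hairpins in limma (0%), with 13 at an unadjusted p under 0.05 and 0 in edgeR. It differed from that at E9.5, in Sox10 sorted cells, for 3 hairpins (1.32%). The effect at E8.5 minus that at E9.5 was -8.19 ± 1.01 on the log2 scale for mir-302d, -7.45 ± 1.12 for mir-302a and -7.28 ± 1.41 for mir-302b (limma adjusted p = 3.39e-04, 0.00138 and 0.0121). With the label code as a block the differences were -7.90 for mir-302d, -7.07 for mir-302a and -9.13 for mir-302b. That fit rests at E8.5 on WT replicate 2 and KO replicate 4 alone, so it cannot decide whether the calls hold. With library-sum scaling the adjusted p was 0.05501 for mir-302b, which ended that call. mir-302c had an adjusted p of 0.0578, and 0.0471 without KO replicate 3. At E9.5 mir-302b had a mean of 232 in WT and 68.0 in KO, mir-302d 95.8 and 23.4, and mir-302a 65.8 and 17.4. The WT means of mir-302b, mir-302d and mir-302a at E8.5 were 3240, 1295 and 803. With a pseudocount of 1, a lower WT level limits the decrease that can be seen, and its part in these differences was not tested. Stage and cell source change together and cannot be told apart. At E9.5 both KO libraries had label code 171 and both WT libraries 209, so genotype and label code cannot be told apart there. For mir-99b the difference between stages did not pass: its log2 fold change was -0.48 at E7.5, 1.33 at E8.5 and 0.45 at E9.5 (adjusted p of the differences 0.564 and 0.441).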

How the data were processed

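FastQC 0.11.5, STAR 2.7.0f and the build mm10 are named in the submitters' processing notes, with no roles. How reads were counted and how factors were derived is not given in the sources used here. Normalized counts per hairpin are the deposited signal, in which the authors divided reads by 1 factor per library. Each of its 6086 values above 0 was a whole multiple of the worth of 1 read in its library (100%, within 0.001), so reads were recovered. Mature-arm entries were all 0, so arms could not be separated. A column that matched no sample (1 in all) was not used.

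The two-sided test of limma 3.58.1 in R 4.3.3 (lmFit and a trended eBayes) was run on log2(normalized count + 1) with 15 libraries as 6 group means, adjusted by Benjamini-Hochberg over 228 hairpins with a threshold of 0.05. Fold changes on this scale can understate those of low hairpins. A 0 in the shallow KO replicate 3 can instead enlarge a decrease, as for mir-652. edgeR 4.0.16 and DESeq2 1.42.0 on recovered reads were alternatives, as were other scalings, filters, blocks and library sets. Members and the 24 lists were chosen with earlier results of these data known.

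Named hairpins were the miR-302/367 cluster, those called, the 10 highest and 10 lowest without overlap with a mean of at least 50, the 10 most abundant, up to 3 of each list, and those with the miR-302 seed. Others (mir-376b, mir-376c, let-7e, mir-200a, mir-181b-2, mir-181c, mir-181d, mir-297a-3 and mir-297b) were named after their values were seen. The seed was read from miR-302b-3p and miR-302d-3p.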

Additional observations from a re-analysis of the deposited data

Results flagged for a closer look

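In the 4 KO libraries 1 value stood apart from the other 3 by Dixon's 95% criterion in 7 of 105 sets of values examined, and chance marks about 1 in 20. In KO replicate 4, mir-124-2 was at 183 (other 3 libraries 38.7 to 48.6), mir-124-3 at 216 (58.0 to 77.3) and mir-124-1 at 209 (53.6 to 75.7), which share a mature strand. mir-200c was at 56.0 in the same library (77.3 to 78.9 in the others). In KO replicate 1, mir-1a-1 was at 63.1 (0 to 7.46), the blood list summed to 11.0 (0 to 1.43), and the 3 hairpins outside the cluster with the miR-302 seed summed to 88.3 (30.7 to 38.7). None of these 7 marked values was in the shallow KO replicate 3.

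The KO effect differed between E8.5 and E9.5 by a test of the difference itself for mir-302a (-7.45), mir-302b (-7.28) and mir-302d (-8.19), in log2 units. With library-sum scaling the difference for mir-302b did not pass. The label code block rests at E8.5 on WT replicate 2 and KO replicate 4 alone, so it cannot decide whether these calls hold. WT levels of these hairpins were lower at E9.5, which limits the decrease that could be seen there. Stage and cell source cannot be told apart.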

How the results depend on the processing

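The label code block, 1 of 22 alternatives, rests at E8.5 on WT replicate 2 and KO replicate 4 alone, so its calls are not given. Its log2 fold change for mir-302c was -6.38. Over the other alternatives mir-302a, mir-302b, mir-302c and mir-302d kept their call. Against 7 calls with 3 higher, the count was 4 with 0 higher with E8.5 libraries alone and with a pseudocount of 10. It was also 4 with 0 higher in fits without KO replicate 3 chosen after seeing the data, with E8.5 libraries alone and in edgeR. It was 5 with 1 higher with no filter, with a minimum of 50 and in edgeR, and 13 with 9 higher in DESeq2. Leaving out 1 library at a time gave 4 to 8 calls, 0 to 3 of them higher. Same-numbered libraries did not deviate together (r = 0.130, 0.187 and 0.0341), so the numbers do not pair them, and a replicate block gave 5 calls with 1 higher. The count of differences between E8.5 and E9.5 went from 3 to 5 in edgeR, without KO replicate 3, with both, with median-of-ratios scaling and with a minimum of 50. With library-sum scaling that count went to 2 (mir-302a and mir-302d). Against E7.5 it went from 0 to 2 (mir-297a-3 and mir-297b) with the filter on all 15 libraries. For these differences only edgeR and leaving out KO replicate 3 were planned, and the others were chosen after seeing the data. The summed level of the targeted hairpins and the others with the miR-302 seed stayed within 1 SD: 42.7 to 64.9 in KO and 5020 to 6357 in WT on leaving out 1 library.

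Of 1649 values of named hairpins under alternatives, 131 changed sign, all in hairpins that were not called. In 8 hairpins whose value was over 1 SE from 0 the sign turned. Without the 2 KO libraries of label code 128 it became 1.17 for let-7a-2, 1.64 for let-7c-2, 0.13 for mir-96, 0.93 for mir-143, 0.73 for mir-192 and 0.10 for mir-27b. With the label code block (WT replicate 2 and KO replicate 4 alone) it became 1.17, 1.87, 1.11 and 0.66 for let-7a-2, let-7c-2, mir-143 and mir-192. There it was -0.39 for mir-126a and 0.18 for mir-351. For let-7a-2, let-7c-2 and mir-143 it became 0.32, 0.77 and 0.17 in edgeR, 0.28, 0.73 and 0.13 in DESeq2, and 0.60, 1.06 and 0.38 in edgeR without KO replicate 3, where mir-192 was 0.070. The cause was not tested. The depth of KO replicate 3, where 3 reads are 58.0 normalized counts, sets what could be seen there.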
